A study of Homo sapiens with 8 samples.

Results

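Homologous recombination and Fanconi anemia genes were followed in MCF10A cells with and without p53 after DNA damage. The set held 34 genes, chosen by name for their roles in these repair pathways, with earlier results of these data known. They were found on the arrays through RefSeq accessions, and the older name MRE11A was read as MRE11. Each gene was represented by its probe with the highest mean level over the 8 arrays. All 34 were measured, out of 15807 genes in all with a probe well above background on at least 1 array.

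MCF10A is a non-tumorigenic mammary epithelial cell line. MCF10A p53+/+ cells and MCF10A p53-/- cells, which lack p53, were exposed to adriamycin (ADR, also called doxorubicin) and harvested 12, 24 and 48 h later, and untreated cells of both genotypes were taken at 0 h. The labels give 0.5 µg/ml of ADR for 2 h, while the study's microarray methods give a higher dose for these same MCF10A cells. The dose used is therefore not certain. There was 1 single-colour array per genotype and time, 8 arrays in all, so no level has a replicate error, and the labels do not say whether the p53-/- cells are 1 clone.

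ADR traps topoisomerase II on DNA and leaves double-strand breaks. Homologous recombination repairs such breaks by copying the sister chromatid, so it works after replication, in S and G2 phase. End resection first makes single-stranded DNA. BRCA1, PALB2 and BRCA2 then load the recombinase onto it, paralogs of the recombinase and partner proteins help it to pair with the sister, and helicases and nucleases take the joined molecules apart. The Fanconi anemia pathway repairs crosslinks between DNA strands. Its core complex, with the ubiquitin-conjugating enzyme UBE2T, attaches ubiquitin to FANCD2 and FANCI, and recombination completes the repair. Many of these genes are transcribed mainly in dividing cells, and p53 lowers many cell cycle genes through p21, the product of CDKN1A, which keeps E2F and DREAM complexes in a repressive state.

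Promoters of 6 members that lay at least 2-fold lower in treated p53+/+ cells are shown, since E2F, CHR (cell cycle homology region) and NF-Y letters are the elements usually described for such genes. The 6 were picked by hand, so their matches do not give the share among the lower members. Each line gives the 250 bases before the gene's start in RefSeq (GRCh38.p14, the first of those listed), read 5′ to 3′ on the gene's strand, and none overlaps another annotated gene. Capitals mark the letters searched on both strands, which were TTTGAA or TTCGAA for CHR, TTTGGCGC, TTTCGCGC, TTTCCCGC or TTTGCCGC for E2F, and CCAAT for NF-Y.
UBE2T (chr1:202341937-202342186, reverse strand): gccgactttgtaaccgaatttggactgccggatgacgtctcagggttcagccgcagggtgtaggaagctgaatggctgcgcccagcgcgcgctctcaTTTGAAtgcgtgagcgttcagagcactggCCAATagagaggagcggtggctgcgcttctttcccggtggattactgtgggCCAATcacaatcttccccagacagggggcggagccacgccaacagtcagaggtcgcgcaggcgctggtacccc
XRCC3 (chr14:103715452-103715701, reverse strand): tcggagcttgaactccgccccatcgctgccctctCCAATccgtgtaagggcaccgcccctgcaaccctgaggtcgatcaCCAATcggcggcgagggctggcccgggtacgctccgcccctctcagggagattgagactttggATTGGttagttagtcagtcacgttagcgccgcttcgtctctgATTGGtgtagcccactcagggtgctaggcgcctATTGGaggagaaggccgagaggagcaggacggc
FANCA (chr16:89816648-89816897, reverse strand): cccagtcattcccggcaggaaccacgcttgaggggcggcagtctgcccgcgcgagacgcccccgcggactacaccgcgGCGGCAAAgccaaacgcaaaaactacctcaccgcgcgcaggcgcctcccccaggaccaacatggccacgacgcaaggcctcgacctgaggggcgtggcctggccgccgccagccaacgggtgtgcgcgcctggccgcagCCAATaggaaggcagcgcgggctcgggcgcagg
RAD54L (chr1:46247438-46247687, forward strand): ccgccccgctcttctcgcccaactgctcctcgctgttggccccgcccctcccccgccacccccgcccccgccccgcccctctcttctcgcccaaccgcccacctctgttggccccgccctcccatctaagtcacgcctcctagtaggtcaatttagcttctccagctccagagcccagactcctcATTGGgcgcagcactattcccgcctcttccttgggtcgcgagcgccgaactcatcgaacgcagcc
RAD51AP1 (chr12:4538640-4538889, forward strand): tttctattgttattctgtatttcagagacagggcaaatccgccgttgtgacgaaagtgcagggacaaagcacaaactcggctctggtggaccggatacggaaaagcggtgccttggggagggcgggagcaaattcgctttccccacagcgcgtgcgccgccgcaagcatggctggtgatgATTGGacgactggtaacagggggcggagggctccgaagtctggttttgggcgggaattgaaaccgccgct
BARD1 (chr2:214809684-214809933, reverse strand): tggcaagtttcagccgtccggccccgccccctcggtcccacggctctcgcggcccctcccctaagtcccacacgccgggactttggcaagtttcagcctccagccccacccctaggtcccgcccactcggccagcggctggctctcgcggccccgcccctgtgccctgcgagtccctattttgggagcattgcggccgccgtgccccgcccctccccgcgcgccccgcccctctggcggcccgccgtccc
UBE2T held the CHR letters TTTGAA followed by CCAAT in 2 places, the nearer of which began 73 bases before the start. XRCC3 held the NF-Y letters in 5 places. FANCA held the E2F letters on the other strand and 1 CCAAT, RAD54L and RAD51AP1 held 1 NF-Y match each, and BARD1 held none of these letters. XRCC2, FANCB, FANCG and EXO1, also lower but not shown, held none either. Of the 34 members, 30 were in the promoter table, where 13 held NF-Y letters (43.3%), 3 held CHR letters (10%) and 2 held E2F letters (6.67%). Over all 27305 promoters the shares were 33.0%, 14.6% and 2.79%. Of the 12447 promoters of genes tested, 4352 held NF-Y letters (35.0%), 1338 CHR letters and 514 E2F letters (4.13%). Against these promoters the members' CHR share was about the same, and their E2F share rested on 2 genes. Of the 17 members that lay at least 2-fold lower in treated p53+/+ cells at every time, 14 were in the table, and 7 of them held NF-Y letters (50%), 1 CHR letters and 1 E2F letters. Among the other 16 members in the table these counts were 6, 2 and 1. A match only describes these letters.

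The 8 arrays were first compared for their labels. Levels here are log2 processed signals minus the log2 of each array's 75th percentile. DCN, an extracellular matrix proteoglycan of fibroblasts, had 5.75 on the array labelled p53+/+ 0 h, beside 5.70 to 6.07 on the p53-/- arrays, against 2.09, 2.28 and 2.37 in treated p53+/+ cells. CDH1, the epithelial cadherin, read -3.13 on this array, -3.55 to -0.94 on the p53-/- arrays, and 1.42, 2.00 and 2.10 in treated p53+/+ cells.

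On both genes the array labelled p53+/+ 0 h thus lay with the p53-/- arrays and apart from the treated p53+/+ arrays. It is the only untreated array with that label, so a mislabelled RNA and a response of p53+/+ cells to ADR cannot be told apart here, and comparisons that start from it carry this doubt. The main comparison below is that of treated p53+/+ with treated p53-/- cells at the same time, which leaves out both 0 h arrays. The treated lines also differed in genes outside DNA repair, as DCN and CDH1 show. Of 7 mammary epithelial markers, 6 were well above background on all 8 arrays, the exception being TP63, and their summed level was 6.63 to 8.12 on the p53+/+ arrays and 6.11 to 6.79 on the p53-/- arrays. Of the 4 fibroblast markers only DCN was well above background on all 8 arrays, and COL1A2 was so on none. The summed level of these 4 was 2.11 to 5.75 on the p53+/+ arrays and 5.70 to 6.07 on the p53-/- arrays. Of 3 immune markers 2, and of 3 endothelial markers 1, were well above background on all 8 arrays. The arrays were scanned as 1 slide with each genotype in its own block of positions, so a genotype cannot be told apart from a position on the slide.

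The p53+/+ 48 h array stood apart as well. None of its 10 spike-in probes was well above background, against 6 on every other array, and 12 of the 34 members were not well above background there, whereas all 34 were on each of the other 7 arrays. It held 232 probes at least 4-fold below every other array, against 21 or fewer elsewhere. For those 12 members a 48 h fold is given as at least a value, with the dim signal at a bound. This bound was the lowest signal well above background on that array (-4.63), or the probe's own signal where higher. It is the lowest over all probes, and XRCC2 at -3.28 was not well above background. The limit of a single probe can therefore lie higher, and such folds can overstate the difference. CDKN1A checked the p53 response. It read 2.54, 2.63 and 2.70 in treated p53+/+ cells, -0.96, -0.64 and -0.48 in treated p53-/- cells, -1.14 on the array labelled p53+/+ 0 h and -2.97 in untreated p53-/- cells.

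Most members were lower in treated p53+/+ cells than in treated p53-/- cells, 30 of 34 at 12 h, 32 at 24 h and 31 at 48 h. Of all 15807 genes tested, 7087, 8189 and 7162 were lower at these times. At 12, 24 and 48 h alike, 17 of the 34 were at least 2-fold lower (BRCA1, BRCA2, BARD1, RAD51AP1, XRCC2, XRCC3, RAD54L, RAD54B, FANCA, FANCB, FANCG, FANCI, UBE2T, BLM, RMI1, RMI2 and EXO1), and over all genes tested 5.92% were. None was at least 2-fold higher at all 3 times, where 6.76% of all genes were. With the 48 h arrays left out, 18 members were at least 2-fold lower at 12 and 24 h, against 7.4% of all genes, the added member being FANCE. The members' median log2 differences at 12, 24 and 48 h were -1.13, -1.44 and -3.31, and the last became -2.87 with dim values at their bound. Over all genes tested it was 0.09, -0.03 and 0.10.

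**Figure D1:**
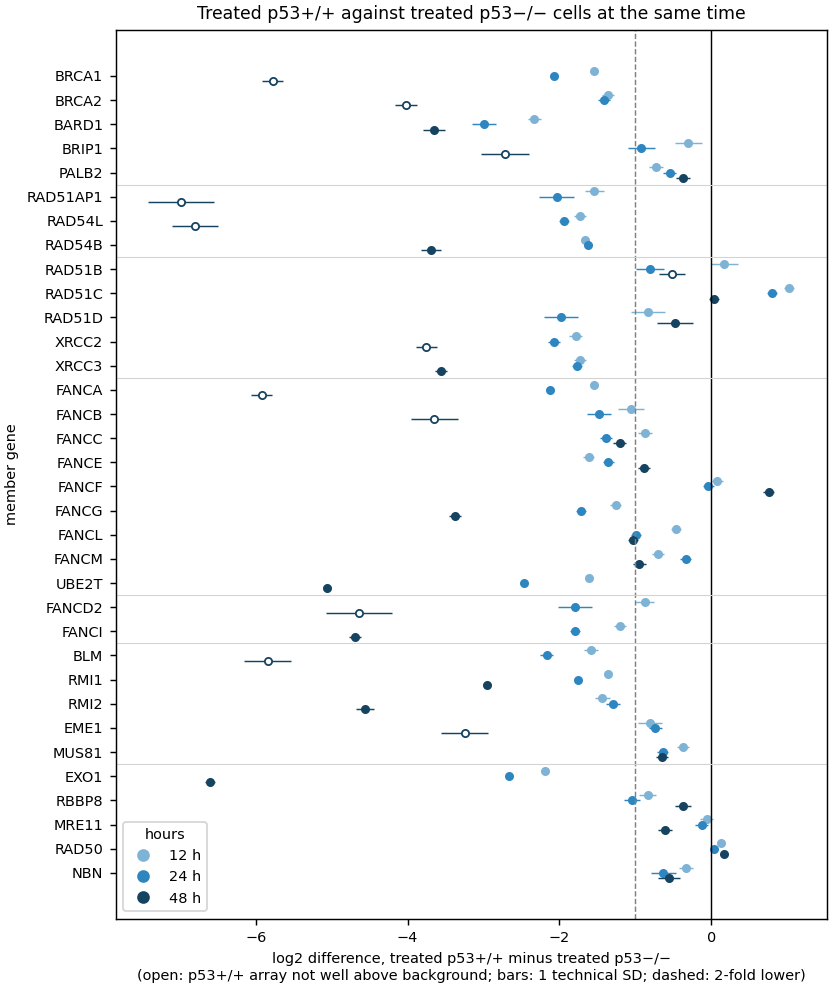
Log2 difference between treated p53+/+ and treated p53-/- cells (horizontal axis) for the 34 members (vertical axis, grouped by role) at 12, 24 and 48 h, 1 array per genotype and time. Bars are 1 technical SD from probes printed in 10 spots and open points mark members not well above background on the p53+/+ 48 h array. The 48 h points of the members with the largest differences lie far to the left of their 12 h and 24 h points, while RAD50, FANCF, MRE11 and RAD51C stay near or right of 0.

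With 1 array per condition, limma was fitted to the 6 treated arrays with the 3 times standing in for replicates, so its p-values set the genotype difference against the movement over time. It called 8 members lower in p53+/+ cells (BARD1, XRCC2, XRCC3, FANCC, FANCE, UBE2T, RMI1 and RBBP8), and 7.4% of all probes were called so. It called no member higher, against 10.6% of all probes. Counted by gene, with 1 probe each as for the members, it called 1475 of the 15807 genes lower and 1829 higher. The lowest adjusted p among the other 26 members was 0.0539 in limma. At an unadjusted p of 0.05, limma gave 25 members lower and 0 higher, against 14.1% and 19.9% of all probes. With time as a block, which pairs the arrays of both genotypes by time, 8 were also called, without UBE2T and RBBP8 and with RAD54B and FANCG in their place. The call depended on the times. Without the 48 h arrays limma called 17 members, 6 of them among the 8, without the 12 h arrays 1 (BARD1), and without the 24 h arrays 0. Where treated groups are said below not to overlap, this only describes 3 values per genotype. The share of all genes with separate groups was not counted.

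BRCA1, BARD1, PALB2, BRCA2 and BRIP1 form the BRCA1 complex and the mediators that load the recombinase. BARD1, the partner of BRCA1 in a ubiquitin ligase, read 0.45 on the array labelled p53+/+ 0 h, then -1.48, -2.19 and -3.36 in treated p53+/+ cells from 12 to 48 h. In p53-/- cells it read 0.33, 0.85, 0.81 and 0.30 from 0 to 48 h. Every treated p53+/+ value was below every p53-/- value, and the level was lower at each later time. Treated p53+/+ cells were 5.04-, 7.99- and 12.6-fold below treated p53-/- cells, and limma gave a log2 difference of -3.00 (SE 0.47, adjusted p = 0.00926).

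BRCA1, the tumour suppressor that directs breaks towards recombination, read 0.26 on the array labelled p53+/+ 0 h, then -0.55, -0.80 and -4.76 in treated p53+/+ cells. The p53-/- levels were 0.41, 0.99, 1.27 and 1.02. The treated groups did not overlap, with p53+/+ cells 2.92-fold lower at 12 h, 4.22-fold lower at 24 h and at least 49.9-fold lower at 48 h. limma's log2 difference of -3.13 (SE 1.07) had an adjusted p of 0.0919.

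BRCA2, which delivers the recombinase to single-stranded DNA, was lower in p53+/+ cells by 2.56- and 2.66-fold at 12 and 24 h and at least 3.90-fold at 48 h. PALB2, which bridges BRCA1 and BRCA2, had the smallest mean difference in this group. It read -1.34 on the array labelled p53+/+ 0 h, then -1.85, -1.69 and -1.48 in treated p53+/+ cells, against -1.75, -1.13, -1.14 and -1.11 in p53-/- cells. Its treated values did not overlap between genotypes, but they differed by 0.37 to 0.73 on the log2 scale (limma adjusted p = 0.0828). BRIP1, a helicase that binds BRCA1, differed by -0.30 and -0.92 at 12 and 24 h and was at least 2.11-fold lower at 48 h.

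All 3 partners of the recombinase were at least 2-fold lower at every time. RAD54L and RAD54B are motor proteins that help the recombinase to invade the sister DNA, and RAD51AP1 stabilises that joint. RAD54L read 1.73 on the array labelled p53+/+ 0 h, then 0.26, 0.49 and -4.80 in treated p53+/+ cells, against 1.40, 1.99, 2.43 and 2.00 in p53-/- cells. It was 3.33- and 3.83-fold lower in p53+/+ cells at 12 and 24 h and at least 99.1-fold lower at 48 h.

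RAD51AP1 read -0.72 on the array labelled p53+/+ 0 h, then -1.92, -2.13 and -6.62 in treated p53+/+ cells, against -1.34, -0.37, -0.10 and 0.36 in p53-/- cells. It was 2.91- and 4.10-fold lower in p53+/+ cells at 12 and 24 h and at least 31.7-fold lower at 48 h, and in p53-/- cells its level was higher at each later time. RAD54B, printed in 10 spots and well above background on every array, read -0.38 on the array labelled p53+/+ 0 h, then -1.61, -1.77 and -4.11, against -0.37, 0.06, -0.15 and -0.42 in p53-/- cells. Its differences were 3.17-, 3.07- and 12.9-fold. A dimmer RAD54B probe differed by -0.13, -1.40 and -2.01, and was not well above background in p53+/+ cells at 24 and 48 h. None of the 3 passed limma, where the adjusted p-values were 0.0933 for RAD51AP1, 0.124 for RAD54L and 0.0543 for RAD54B, although RAD54B did with time as a block (limma adjusted p = 0.0432).

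The 5 paralogs of the recombinase went different ways. XRCC2 and XRCC3 were at least 2-fold lower at every time. XRCC3 read 1.62 on the array labelled p53+/+ 0 h, then 0.30, 0.41 and -1.48 in treated p53+/+ cells, against 1.32, 2.03, 2.19 and 2.08 in p53-/- cells. The groups did not overlap, at 3.32-, 3.42- and 11.8-fold (limma log2 difference -2.35, SE 0.50, adjusted p = 0.0236). XRCC2 read -0.14 on the array labelled p53+/+ 0 h, then -1.15, -1.51 and -3.28, while p53-/- cells read -0.39, 0.64, 0.57 and 0.47. It was 3.45- and 4.22-fold lower at 12 and 24 h and at least 13.5-fold lower at 48 h (limma adjusted p = 0.0228).

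RAD51C lay higher in p53+/+ cells. This paralog, which works in complexes with both RAD51B and XRCC3, read 1.62 on the array labelled p53+/+ 0 h, then 2.89, 3.37 and 2.53 in treated p53+/+ cells, against 1.28, 1.87, 2.57 and 2.50 in p53-/- cells. It was above both 0 h arrays on all 6 treated arrays. The genotypes differed by 1.02, 0.80 and 0.03 on the log2 scale, with p53+/+ higher (limma adjusted p = 0.2), and the mean difference of 0.62 was 0.02 without scaling of the arrays. RAD51B read -2.64 on the array labelled p53+/+ 0 h, then -3.36, -3.60 and -3.98 in treated p53+/+ cells, against -2.47, -3.54, -2.79 and -3.46 in p53-/- cells, so the treated groups overlapped. RAD51D differed by -0.83, -1.98 and -0.48, and its probes disagreed, since the probe for NM_002878 gave -0.01, -0.07 and 0.76.

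**Figure D2:**
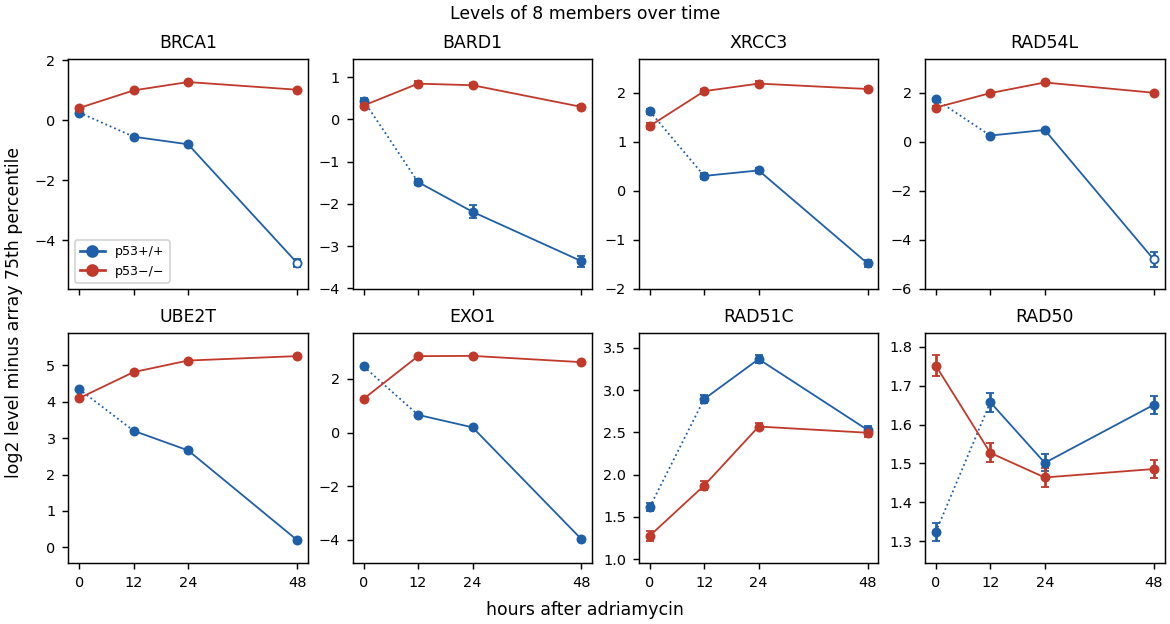
Log2 level minus the array's 75th percentile (vertical axis) against hours after ADR (horizontal axis) for 8 members in p53+/+ (blue) and p53-/- (red) cells, 1 array per point, with bars of 1 technical SD and open points not well above background. The dotted lines start from the array labelled p53+/+ 0 h. BRCA1, BARD1, XRCC3, RAD54L, UBE2T and EXO1 lie lower in p53+/+ cells at every treated time, RAD51C lies above its 0 h levels in both genotypes, and RAD50 spans less than 0.5 on its narrower axis.

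The Fanconi anemia core complex and its E2 enzyme made up 9 members, of which 4 were at least 2-fold lower at every time (FANCA, FANCB, FANCG and UBE2T). UBE2T, the E2 enzyme, read 4.35 on the array labelled p53+/+ 0 h, then 3.20, 2.66 and 0.20 in treated p53+/+ cells, against 4.10, 4.82, 5.14 and 5.26 in p53-/- cells. The level went down at each time in p53+/+ cells and up at each time in p53-/- cells. Treated p53+/+ cells were 3.06-, 5.55- and 33.4-fold lower, all on signals well above background (limma log2 difference -3.05, SE 0.74, adjusted p = 0.0354, or 0.0533 with time as a block).

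FANCA, FANCB and FANCG are scaffold subunits of the core. FANCA read -0.26 on the array labelled p53+/+ 0 h, then -1.32, -1.56 and -5.86, while p53-/- cells read -0.50, 0.22, 0.56 and 0.06. It was 2.91- and 4.35-fold lower at 12 and 24 h and at least 25.8-fold lower at 48 h. Its other 2 probes were also lower at all 3 times. FANCG read 2.63 on the array labelled p53+/+ 0 h, then 1.5, 1.21 and -0.82, while p53-/- cells read 2.60, 2.76, 2.93 and 2.55, a difference of 2.39-, 3.29- and 10.4-fold. FANCB read -2.06 on the array labelled p53+/+ 0 h, then -3.08, -3.32 and -5.49, while p53-/- cells read -2.92, -2.02, -1.85 and -1.84. It was 2.08- and 2.79-fold lower at 12 and 24 h and at least 6.89-fold lower at 48 h. For these 3 genes limma gave adjusted p-values of 0.106 (FANCA), 0.0641 (FANCB) and 0.0539 (FANCG), the last being 0.0468 with time as a block.

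FANCE and FANCC, which connect the core to FANCD2, had smaller but steadier differences that passed limma. FANCE differed by -1.61, -1.36 and -0.88 (limma estimate -1.28, SE 0.20, adjusted p = 0.00911) and FANCC by -0.87, -1.39 and -1.20 (limma estimate -1.15, SE 0.23, adjusted p = 0.0195). FANCL, the ubiquitin ligase of the core, differed by -0.47, -1.0 and -1.03, and FANCM, the translocase that anchors the core to DNA, by -0.71, -0.33 and -0.95. FANCF stood apart. It read 0.32 on the array labelled p53+/+ 0 h, then 0.70, 0.36 and 1.10 in treated p53+/+ cells, against 0.65, 0.62, 0.40 and 0.35 in p53-/- cells, so the treated groups overlapped (limma adjusted p = 0.483). Without scaling of the arrays, its mean difference of 0.27 turned to -0.33.

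FANCD2 and FANCI, the pair that receives ubiquitin, were both lower. FANCI, well above background on all arrays, read 2.67 on the array labelled p53+/+ 0 h, then 1.62, 1.60 and -1.72, while p53-/- cells read 2.52, 2.82, 3.39 and 2.97. It was 2.30-, 3.46- and 25.9-fold lower in treated p53+/+ cells. FANCD2 read -0.88 on the array labelled p53+/+ 0 h, then -1.89, -2.21 and -5.09, while p53-/- cells read -0.72, -1.01, -0.42 and -0.45. It was 1.84- and 3.48-fold lower at 12 and 24 h and at least 18.1-fold lower at 48 h. Neither passed limma, with adjusted p-values of 0.0946 (FANCI) and 0.0876 (FANCD2).

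Genes of joint dissolution and resolution were mostly lower. BLM, the helicase mutated in Bloom syndrome, dissolves joined molecules together with RMI1 and RMI2. BLM read 0.98 on the array labelled p53+/+ 0 h, then -0.17, -0.74 and -4.78, while p53-/- cells read 0.70, 1.42, 1.42 and 1.07. It was 3.00- and 4.5-fold lower at 12 and 24 h and at least 51.6-fold lower at 48 h. RMI1 read 1.08 on the array labelled p53+/+ 0 h, then -0.0023, -0.27 and -1.67, while p53-/- cells read 0.30, 1.36, 1.48 and 1.28. The treated groups of both genes were separate. RMI1 was 2.57-, 3.37- and 7.73-fold lower (limma adjusted p = 0.0239), and RMI2 was 2.70-, 2.45- and 23.6-fold lower.

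EME1 and MUS81 form a nuclease that cuts joined molecules. EME1 differed by -0.80 and -0.74 at 12 and 24 h and was at least 9.49-fold lower at 48 h. MUS81 read 1.60 on the array labelled p53+/+ 0 h, then 0.98, 0.73 and 1.0 in treated p53+/+ cells, against 1.74, 1.35, 1.37 and 1.65 in p53-/- cells. It was lower in p53+/+ cells at each time, by 1.29-, 1.56- and 1.57-fold (limma adjusted p = 0.0899).

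End resection divided between EXO1 and the MRN complex. EXO1, the nuclease of long-range resection, had the largest mean difference of the 22 members well above background on all arrays. It read 2.46 on the array labelled p53+/+ 0 h, then 0.66, 0.19 and -3.98, while p53-/- cells read 1.26, 2.85, 2.86 and 2.62. All 8 signals were well above background. Treated p53+/+ cells were 4.57-, 6.34- and 97.3-fold lower, although limma gave an adjusted p of 0.0663. RBBP8, also known as CtIP, starts resection with MRN. It differed by -0.84, -1.04 and -0.37 (limma estimate -0.75, SE 0.20, adjusted p = 0.0431, or 0.0842 with time as a block).

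MRE11, RAD50 and NBN form MRN, which senses the break. RAD50 read 1.32 on the array labelled p53+/+ 0 h, then 1.66, 1.5 and 1.65 in treated p53+/+ cells, against 1.75, 1.53, 1.46 and 1.49 in p53-/- cells. Its genotypes differed by 0.04 to 0.17 on the log2 scale (limma adjusted p = 0.684), and its mean difference of 0.11 turned to -0.02 with scaling to each array's median and to -0.49 without scaling. MRE11 differed by -0.06, -0.12 and -0.60. NBN differed by -0.33, -0.63 and -0.55, and its level was below its 0 h value at every time in both genotypes.

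**Figure D3:**
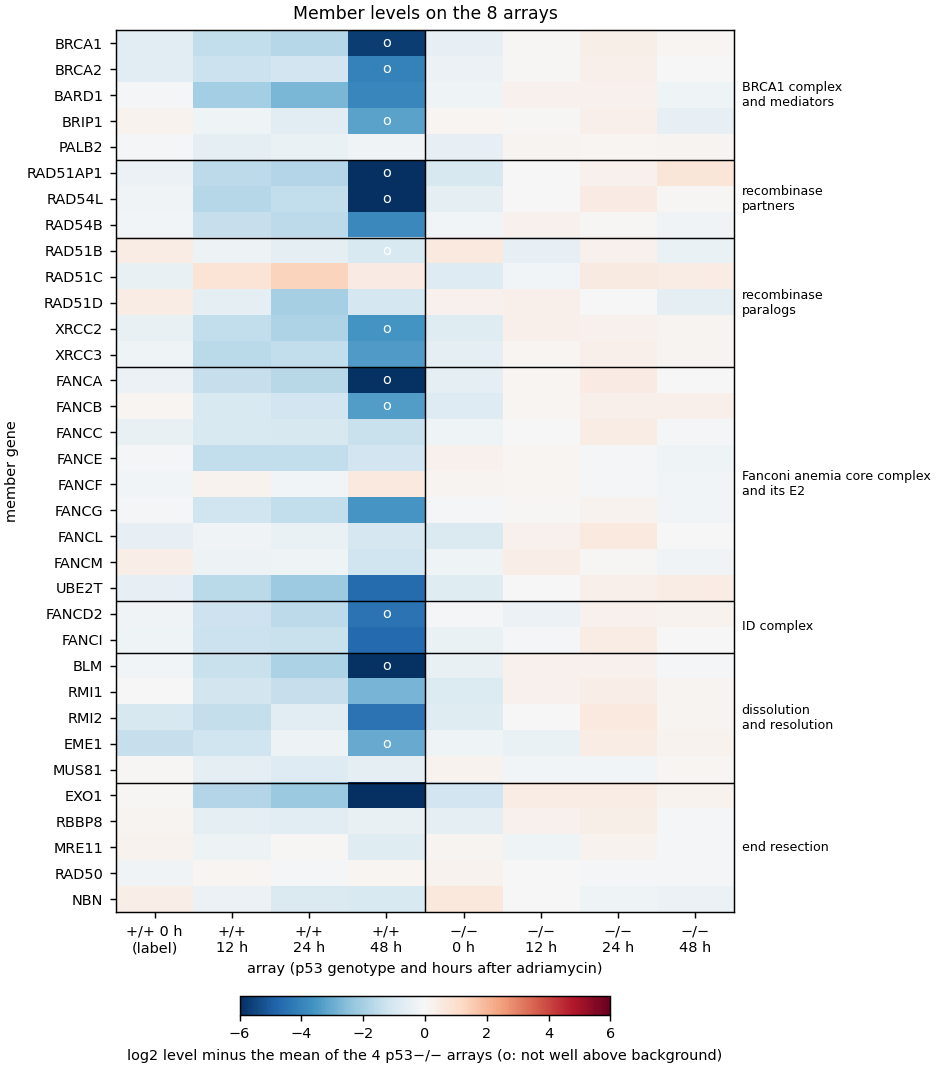
Colour gives each member's log2 level minus its mean over the 4 p53-/- arrays, with members in rows by role and the 8 arrays in columns, 1 sample each. White rings mark values not well above background, all of them on the p53+/+ 48 h array. The first column, labelled p53+/+ 0 h, lies close to the p53-/- columns, and the p53+/+ 48 h column holds the lowest of the 8 values for the 18 members that were at least 2-fold lower there than at 24 h with dim values at their bound.

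In p53-/- cells most members lay slightly above their 0 h level after ADR. The median log2 changes from the p53-/- 0 h array were 0.55, 0.69 and 0.40 at 12, 24 and 48 h, against -0.02, 0.01 and 0.07 over all genes. Of the 34 members, 20 were above their 0 h level at all 3 times and 6 were below it (RAD51B, FANCE, FANCF, RAD50, NBN and MUS81). These counts were not made over all genes. EXO1 alone was at least 2-fold up at all 3 times, by 3.01-, 3.03- and 2.58-fold, where 3.21% of all genes were. None was at least 2-fold down at all 3 times, where 2.04% of all genes were. RAD51AP1 reached 3.26-fold at 48 h and FANCL 2.71-fold at 24 h.

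Changes within p53+/+ cells depend on which 0 h array is taken. From the array labelled p53+/+ 0 h, 16 members were at least 2-fold down at all 3 times, against 6.39% of all genes, and none was at least 2-fold up, against 9.53%. A p53-dependent fall was defined as such a fall that also exceeded the change in p53-/- cells by at least 2-fold at all 3 times. There were 14 (BARD1, RAD51AP1, XRCC2, XRCC3, RAD54L, RAD54B, FANCA, FANCB, FANCG, FANCI, UBE2T, BLM, RMI1 and EXO1), against 4.43% of all genes, and no p53-dependent rise, against 6.26%. Only 5 members (BARD1, RAD54B, FANCD2, FANCE and FANCG) were at least 2-fold below both 0 h arrays at all 3 times, against 4.16% of all genes. Of any size, 17 members lay below the array labelled p53+/+ 0 h in p53+/+ cells and above the p53-/- 0 h array in p53-/- cells at all 3 times, against 11.1% of all genes. Taking the p53-/- 0 h array as the starting point for p53+/+ cells as well, 3 p53-dependent falls were counted (BARD1, RAD54B and FANCG).

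The median change in p53+/+ cells was -0.90, -1.14 and -3.12 from the array labelled p53+/+ 0 h and -0.77, -0.91 and -2.78 from the p53-/- 0 h array. With dim values at their bound the first of these was -2.16 at 48 h. The 2 arrays at 0 h were within 2-fold of each other for 32 members. EXO1, higher by 1.21 on the log2 scale on the array labelled p53+/+ 0 h, and EME1, lower by 1.12, were the exceptions, where 9.63% of all genes differed by as much. In the limma fit of all 8 arrays, the interaction of genotype and treatment passed for no member in either direction, against 0.746% of probes below 0 and 0.94% above 0. At an unadjusted p of 0.05 the interaction was below 0 for 6 members and above 0 for none, against 7.64% and 9.46% of all probes, and the adjusted p-values in limma ran from 0.125 to 0.898.

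The largest step in p53+/+ cells came between 24 and 48 h. Of the 34 members, 20 were at least 2-fold lower at 48 h than at 24 h, against 6.07% of all genes, and none was at least 2-fold higher, against 7.12%. With dim values at their bound 18 were, against 4.96% of all genes, since BRCA2 and BRIP1 were then shown to be only at least 1.81- and 1.93-fold lower. The median step was -1.84 on the log2 scale, compared with -0.23 from 12 to 24 h, -0.26 from 24 to 48 h in p53-/- cells and 0.15 over all genes from 24 to 48 h in p53+/+ cells. EXO1 and FANCI, well above background on both arrays, were 18.03- and 10.03-fold lower at 48 h than at 24 h. From 12 to 24 h only RAD51D was at least 2-fold lower, against 4.25% of all genes. The p53+/+ 48 h array is the one without detected spike-ins, and the part of that array in this step was not tested.

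Other genes of these pathways were read from a list. Of 39 further homologous recombination and Fanconi anemia genes measured (EME2 was not), 14 were at least 2-fold lower in treated p53+/+ cells at every time, none was as much higher, and limma called 13 lower and 0 higher. Their median differences were -0.38, -0.70 and -1.16. USP1, which removes ubiquitin from FANCD2 and FANCI, differed by -1.60, -2.09 and -2.82 (limma adjusted p = 0.00502). RFWD3, a ubiquitin ligase of crosslink repair, differed by -1.28, -1.14 and -1.51 (limma adjusted p = 0.00485). PSMC3IP, a cofactor of strand exchange, differed by -2.16, -2.29 and -5.86 (limma adjusted p = 0.0491). Of the BRCA1-A subunits, UIMC1, BRCC3 and BABAM1 differed by at most 0.36 in size at any time. ABRAXAS1 differed by 0.26, 0.03 and 1.49 and BABAM2 by -0.22, -0.19 and 1.0, so both were higher in p53+/+ cells at 48 h (limma adjusted p = 0.228 and 0.701).

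End joining rejoins breaks without a template. Of 13 of its genes and regulators measured (LIG4 and SHLD3 were not), 9, 11 and 12 were lower in treated p53+/+ cells at 12, 24 and 48 h. Of all 15807 genes tested, 7087, 8189 and 7162 were lower at these times. None of the 13 was at least 2-fold lower at every time, against 5.92% of all genes. limma called 3 lower and 0 higher, against 7.4% and 10.6% of all probes, or 1475 and 1829 of the 15807 genes. The 3 were PRKDC, the catalytic subunit of DNA-dependent protein kinase, DCLRE1C, the nuclease Artemis, and RIF1, a regulator of break repair. The median differences of the list were -0.28, -0.77 and -0.45. XRCC6, a subunit of the Ku end-binding complex, differed by 0.06, -0.07 and -0.01, and XRCC5, the other subunit, by -0.22, -0.83 and -0.85 (limma adjusted p = 0.989 and 0.239).

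**Figure D4:**
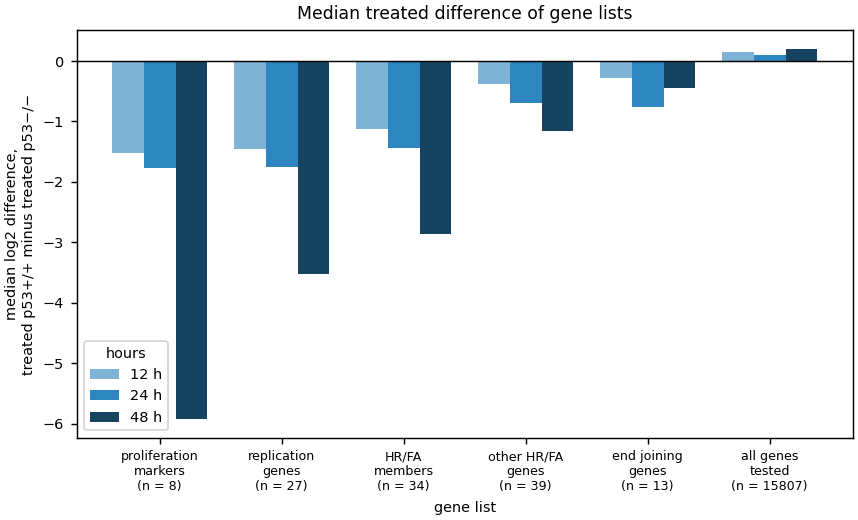
Bars give the median log2 difference between treated p53+/+ and treated p53-/- cells (vertical axis) for 6 gene lists (horizontal axis) at 12, 24 and 48 h, with dim values at their bound and no error bars, since each condition has 1 array. HR/FA stands for homologous recombination and Fanconi anemia. The members, at -1.13, -1.44 and -2.87, lie between the replication genes and the other HR/FA genes, and the bars of all genes are slightly above 0.

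Replication and proliferation genes moved in the same direction. Of 27 replication genes, 21 were at least 2-fold lower in treated p53+/+ cells at every time, with medians of -1.46, -1.76 and -3.58. Of 8 proliferation markers 7 were, with medians of -1.52, -1.77 and -5.93, and the marker MKI67 itself differed by -1.25, -1.70 and -6.05. In p53-/- cells the lists parted. Against the p53-/- 0 h array, replication genes had median changes of 0.95, 0.97 and 0.76 and proliferation markers of -0.94, -0.79 and -0.28, with the members at 0.55, 0.69 and 0.40. The part of fewer dividing cells in the members' differences was not tested, and in RNA of whole cultures fewer cells that express a gene and less RNA per cell cannot be told apart.

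The spread between spots of an array was small beside differences of 2-fold or more. From the 999 probes printed in 10 spots, the technical SD of a member's log2 difference between 2 treated arrays was 0.03 to 0.44, with a median of 0.08. For the 8 members printed in 10 spots themselves, the SD over spots was at most 0.20 outside the p53+/+ 48 h array and reached 0.75 on it. This error covers spots within an array only, not labelling or hybridization of separate arrays, the culture or the RNA. Among 11 further probes of members, 9 were well above background on at least 5 arrays, and 7 of them were lower in treated p53+/+ cells at all 3 times.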

How the data were processed

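RNA of MCF10A p53+/+ and p53-/- cells was measured on 8 single-colour Agilent arrays, 1 per genotype and time. The authors deposited the scanner output of Feature Extraction 10.7.3.1 (version per the submitters' processing notes), whose headers name the build hg19. The processed signal is an intensity that the software had corrected for background, and the deposited flags of each spot (well above background, outlier, saturated) are other values used here. No normalization between arrays was stated, and the deposited value table equalled the scanner values (503808 of 503808).

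Of 62976 spots per array, 58717 were not controls. Spots flagged as uneven or outliers (233 to 370 per array) were left out, no spot was saturated, and 42391 probes remained. The log2 signal minus the log2 75th percentile of each array (661 to 1199) was averaged over spots. Between 49.8 and 62.9% of probes were well above background. RefSeq accessions of GRCh38.p14 named 27223 probes (64.2%), 20292 genes. Since that is not hg19, no gene coordinates from it are given beside the array values.

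The 34 members, their roles, the other lists and the tests were chosen with earlier results of these data known. Every array is given for members with a p53-dependent fall, a 2-fold change in p53-/- cells at all 3 times or the largest or smallest mean difference of their role. RAD51C was added after its values were seen. Some values that bear on the array labels are not reported here. limma 3.58.1 (lmFit, eBayes, R 4.3.3) was fitted to 28947 probes (those well above background on 1 array or more), with Benjamini-Hochberg adjustment over all of them and a threshold of 0.05, and was tested on simulated data. Alternatives were quantile, median and no scaling, normexp (offset 50), the p53-/- 0 h baseline, probe and filter choices, 3-fold, 2 of 3 times, each time left out and time as a block. Precision is limited by the 8 arrays. Software was Python 3.11.15 with numpy 2.4.6, pandas 2.3.3 and matplotlib 3.10.9.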

Additional observations from a re-analysis of the deposited data

Results flagged for a closer look

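In 17 of the 34 members every treated p53+/+ array lay below the array labelled p53+/+ 0 h and every treated p53-/- array lay above the p53-/- 0 h array, against 11.1% of all genes. For 15 of them the p53+/+ values were also below the p53-/- 0 h array at all 3 times. With 1 array per condition the opposite directions were not tested at single times, and the limma interaction over all times passed for none of the 34 members (adjusted p of 0.125 to 0.898). The values are given as mean log2 changes over 12, 24 and 48 h, first in p53+/+ cells from the array labelled p53+/+ 0 h, whose DCN and CDH1 levels lay with those of the p53-/- arrays, and then in p53-/- cells.

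In the BRCA1 complex and mediators the 2 means were -2.30 and 0.69 for BRCA1, -1.53 and 0.45 for BRCA2, and -0.34 and 0.63 for PALB2. Of the recombinase partners, they were -2.84 and 1.31 for RAD51AP1 and -3.08 and 0.74 for RAD54L. The recombinase paralogs had means of -1.83 and 0.95 for XRCC2 and -1.88 and 0.78 for XRCC3. In the Fanconi anemia core complex they were -2.65 and 0.78 for FANCA, -1.91 and 1.02 for FANCB, -0.64 and 0.35 for FANCC, and -0.96 and 0.33 for FANCM. They were -2.33 and 0.97 for UBE2T, the E2 enzyme of that complex, and -2.17 and 0.53 for FANCI, which it modifies. The helicase BLM and its partner RMI1 had means of -2.88 and 0.60 for BLM and -1.73 and 1.08 for RMI1. The resection genes had -3.51 and 1.52 for EXO1 and -0.75 and 0.72 for RBBP8.

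The p53+/+ signal at 48 h was not well above background for 8 of the 17, so their first means are not exact. With that value at its bound they were -2.25 for BRCA1, -0.85 for BRCA2, -2.17 for RAD51AP1, -3.03 for RAD54L, -2.24 for FANCA, -1.62 for FANCB and -2.82 for BLM, while that of XRCC2 stayed at -1.83, its signal being above the bound.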

How the results depend on the processing

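A fit by replicate number could not be made, since each genotype and time has 1 array, and arrays were paired by time alone. Of the 34 members, 17 were at least 2-fold lower in treated p53+/+ cells at all 3 times, a result added, with its alternatives, after the data were seen. It ranged from 15 to 24 under the scalings, backgrounds and probe choices and from 17 to 19 with a time left out, and was 9 of the 22 members well above background on all arrays and 8 at 3-fold. Falls from the array labelled p53+/+ 0 h (16) became 10 with normexp, 9 with the stricter filter, 5 from the p53-/- 0 h array and 2 at 3-fold, and were 16 to 19 with a time left out. p53-dependent falls (14) became 8, 3 and 2 under the last 3 of these, and were 14 to 16 with a time left out. Rises in p53-/- cells (1) became 2 with median scaling, 10 without scaling, 0 at 3-fold, 7 at 2 of 3 times, and 1 to 5 with a time left out. The median change of members in p53-/- cells (0.49) was 0.88 without scaling, where that of all genes was 0.42, and 0.34 with the stricter filter. The median change in p53+/+ cells (-1.60) ran from -2.02 to -1.04.

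Members called lower by limma (8) were 21 without scaling, where the median of all genes shifted from 0.05 to -0.55, 25 with normexp and 13 with the stricter filter, and 0 to 17 with a time left out. With time as a block 8 were called, 6 of them the same (without UBE2T and RBBP8, with RAD54B and FANCG). Interaction calls (0) were 3 without scaling (PALB2, FANCE and RBBP8) and 1 with normexp (BARD1). Of 170 differences of single members under another scaling, background or probe choice, 132 kept their direction and side of the threshold, 34 newly passed it and 4 turned: RAD51B with normexp (0.058), FANCF without scaling (-0.33), and RAD50 with median scaling (-0.023) and without scaling (-0.49). The causes were not tested.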
